A study of Homo sapiens with 12 samples.

Results

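Glycolysis and pyruvate metabolism were followed through 35 genes in the 12 RNA-seq libraries of IMR90 ER:RAS cells. The genes were taken by name, as those for glucose uptake, the enzymes from hexokinase to lactate dehydrogenase, lactate export, and the pyruvate dehydrogenase (PDH) complex with its kinases and pyruvate carrier. All 35 were found among the 62069 genes of the count table, and 34 passed the filter on low counts together with 15250 others. The gene that did not was PDK4, a PDH kinase, which had 17 counts in all.

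IMR90 is a human lung fibroblast line, and ER:RAS joins RAS to the hormone-binding domain of the estrogen receptor. Adding 4-hydroxytamoxifen (4OHT) switches this RAS on and drives oncogene-induced senescence (OIS). All 12 libraries came from cells of this line that carry the fusion, at passage 13. The non-induced group (3 libraries) had no 4OHT, and the induced group (3 libraries) was labelled as 5 days after induction with 100 nM 4OHT. Induced shXPO7_3 and induced shXPO7_5 (3 libraries each) were induced in the same way and also carried an shRNA against XPO7, which encodes a nuclear transport receptor. In the study both groups without a hairpin are shown as vector, and the other hairpin is written shXPO7_X5. The growth notes give 7 days in culture with fresh medium on day 4. Neither source says that the 3 libraries of a group were separate cultures. The p-values therefore reflect only how far these libraries spread, and that spread may be technical.

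Each library held 28534141 to 60397769 counted reads. All 9 fibroblast markers examined were above 10 CPM (counts per 1e6 library counts, after TMM scaling) in every group, and their summed level ran from 24190 to 27970 CPM in the non-induced and from 16900 to 18360 CPM in the induced libraries. All 5 leukocyte markers were under 1 CPM. Of the epithelial markers KRT5 and KRT14 were at 0, while KRT19 averaged 33.6 CPM without and 2.01 CPM with induction. Of the endothelial markers PECAM1 and CDH5 were listed at 0, TEK averaged 12.4 CPM without and 6.31 CPM with induction, VWF 2.23 and 3.14 CPM, and KDR 0.236 and 0.339 CPM. The part of these markers in the results was not tested. In bulk RNA, fewer cells of a type and less RNA per cell cannot be told apart. XPO7, the hairpins' target, measured 142.5, 131.7 and 129.3 CPM in non-induced, 126.8, 143.8 and 139.3 CPM in induced, 26.4, 28.7 and 27.9 CPM in shXPO7_3 and 50.8, 54.0 and 51.8 CPM in shXPO7_5 libraries. Libraries of a group also differed in GC content: the Spearman correlation of a non-induced library's deviation from its group mean with transcript GC was 0.62, -0.14 and -0.68 across genes.

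Glycolysis splits glucose into pyruvate in the cytosol. Hexokinase traps glucose in the cell as a phosphate, phosphofructokinase commits it to the pathway, and the later steps of the pathway recover ATP and NADH. Pyruvate is then either reduced to lactate by lactate dehydrogenase and exported by monocarboxylate carriers, or taken into mitochondria and converted to acetyl-CoA by the PDH complex, which PDH kinases switch off and PDH phosphatases switch on. Senescent cells are known for high metabolic activity, and in RAS-driven senescence the PDH complex and its kinase PDK1 are known points of control.

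The promoters of the members that moved furthest in each direction on induction are shown first, because HIF-1 and MYC type factors, which are known regulators of glycolysis genes, bind short motifs in such DNA. HK2 and HKDC1 were called higher with the largest changes, and PDK1 and PDK2 lower. The stretches lie upstream of RefSeq transcript starts on GRCh38.p14, on the plus strand, cut short where GENCODE release 29 annotates an exon of the gene. Each is the RefSeq window nearest to the start of a principal transcript, and for HK2 a second window is added. Further windows of PDK1 and PDK2 are not shown. The stretches shown are HK2 at chr2:74833877-74833980, the second HK2 window at chr2:74834920-74835169, HKDC1 at chr10:69220082-69220302, PDK1 at chr2:172555840-172555968 and PDK2 at chr17:50095101-50095274. The second HK2 stretch and those of PDK1 and PDK2 lie inside the annotated genes. Capitals mark ACGTG, a form of the core of the HIF element, read on either strand. The form GCGTG was not searched for or marked.
HK2: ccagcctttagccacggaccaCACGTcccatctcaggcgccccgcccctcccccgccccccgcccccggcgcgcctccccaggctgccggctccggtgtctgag
HK2 second window: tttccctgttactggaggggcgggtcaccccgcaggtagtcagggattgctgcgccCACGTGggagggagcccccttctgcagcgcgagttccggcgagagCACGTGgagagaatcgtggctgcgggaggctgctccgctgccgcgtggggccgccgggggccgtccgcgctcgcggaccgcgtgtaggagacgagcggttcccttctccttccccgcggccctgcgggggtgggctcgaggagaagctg
HKDC1: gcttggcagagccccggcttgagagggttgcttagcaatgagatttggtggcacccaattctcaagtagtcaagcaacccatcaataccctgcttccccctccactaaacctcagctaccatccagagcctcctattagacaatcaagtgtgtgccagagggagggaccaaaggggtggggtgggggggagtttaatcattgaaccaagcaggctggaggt
PDK1: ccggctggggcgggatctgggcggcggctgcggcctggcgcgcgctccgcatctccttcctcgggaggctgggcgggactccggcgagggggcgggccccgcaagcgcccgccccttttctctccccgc
PDK2: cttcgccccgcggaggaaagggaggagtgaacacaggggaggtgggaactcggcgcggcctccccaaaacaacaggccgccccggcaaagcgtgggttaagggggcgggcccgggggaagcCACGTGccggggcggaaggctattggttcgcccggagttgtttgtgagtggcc

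The first HK2 stretch held 1 such match and the second held 4. Those 4 lay in 2 copies of CACGTG, the E-box, which contains ACGTG on both strands. The PDK2 stretch had 2 matches in 1 E-box, and those of HKDC1 and PDK1 had none, although the full PDK1 window, which runs on into an exon, held 2. The further windows of PDK1 and PDK2, which are not shown, held no match. GC boxes (GGGCGG or its complement) numbered 5 in the PDK1 stretch, 3 and 1 in those of HK2, 3 in that of PDK2 and 0 in that of HKDC1. In the full windows of 300 bases, from 250 before to 50 after a start, 31 of the 35 members had 61 windows. SLC2A3, SLC16A1, PFKFB2 and PDP1 had no entry. ACGTG was in 22 of the 61 windows (36.1%) and in 21.4% of all 35116 windows. CACGTG was in 13.1% and 7.26%, the AP-1 element TGAGTCA in 4.92% and 4.95%, and GGGCGG in 68.9% and 45.0%. Windows of a gene can overlap, so they are not independent. By gene, ACGTG was in at least 1 window of 5 of 9 members called higher, 4 of 5 called lower and 9 of 16 not called on induction. Genes differ in their number of windows (1 for GPI, 7 for PFKM), and a share by gene over all genes is not given. These counts by gene cannot be set against the 21.4% of windows. A match is a description of the sequence only.

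Induction changed the members in both directions. Of the 34 tested, 11 were called higher and 5 lower in induced than in non-induced cells (edgeR's quasi-likelihood test, Benjamini-Hochberg adjusted p under 0.05 over all 15284 genes). The background was high, since 50.9% of all genes were called, 24.8% higher and 26.1% lower. The 16 members called are therefore no larger share than among genes at large. Members had a median log2 fold change of 0.052, and all genes one of -0.0068. The libraries of the 2 groups did not overlap for 21 members, against 63.2% of all genes. The members called at 2-fold or more were HK2, HKDC1 and SLC2A3, all higher, while 16.8% of all genes were called at that size. With upper-quartile scaling, which moves the median of all genes to -0.10, the same number of members was called but 7 were higher and 9 lower. That scaling called 49.1% of all genes. After correcting for GC content and exon length, 17 were higher and 7 lower, in a fit that called 64.8% of all genes. In the plot of fold changes by role, the points farthest from 0 are HK2, HKDC1, SLC2A3 and PFKFB3 above it and PDK1 and PDK2 below it. Of the 16 calls, 10 held in all 15 alternatives tried, and these were SLC2A3, SLC16A1, HK2, PFKFB3, PFKFB4 and DLAT among the higher, and PFKP, PDK1, PDK2 and PDHA1 among the lower.

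Glucose enters the cell through facilitative carriers. SLC2A3 (GLUT3, a high-affinity carrier) stood at 69.1, 64.2 and 61.6 CPM in the non-induced libraries and at 140.3, 138.5 and 145.8 CPM in the induced ones. Every induced library was above every non-induced one, and the log2 fold change was 1.12 (adjusted p = 1.12e-07, standard error 0.075). SLC2A1 (GLUT1, the carrier of most cell types) measured 143 ± 11.5 CPM (SD, n = 3) and 139 ± 1.40 CPM (SD, n = 3), and was not called (log2 fold change -0.047, 95% confidence interval -0.25 to 0.16, adjusted p = 0.704). With the correction for GC content its estimate was 0.113 (adjusted p = 0.0199), the only member whose direction turned with a call. Per kb of exon, SLC2A3 made up 25.8% ± 0.534 of the pair's summed level without and 43.9% ± 0.637 with induction (SD, n = 3). SLC2A14, a near-identical copy of SLC2A3, was at 0.393 and 0.894 CPM, and how reads matching both were counted is not given in the sources used here.

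Lactate leaves through monocarboxylate carriers. SLC16A1 (MCT1) measured 90.8, 102.8 and 101.0 CPM without induction and 147.5, 145.1 and 144.6 CPM with it (log2 fold change 0.57, standard error 0.11, adjusted p = 0.000858), with no overlap. SLC16A3 (MCT4, the carrier of strongly glycolytic cells) stood at 190.5 ± 11.1 and 197.3 ± 7.53 CPM (SD, n = 3) and was not called (adjusted p = 0.704). The share of SLC16A1 in the pair per kb was 46.6% ± 1.90 and 55.6% ± 1.20 (SD, n = 3).

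HK2, the inducible hexokinase, had the largest called change of the members. Its levels were 37.3, 37.8 and 37.0 CPM without and 153.8, 150.0 and 144.3 CPM with induction, 4.00-fold higher (log2 fold change 2.0, standard error 0.060, adjusted p = 1.14e-10). Over the 15 alternatives the log2 fold change ran from 1.90 to 2.12. HK1, the constitutive form, rose from 222 ± 19.1 to 264.9 ± 1.66 CPM (SD, n = 3; log2 fold change 0.26, adjusted p = 0.0405). This call was lost in 8 of the 15 alternatives, among them the fits without non-induced library A or C or any of the 3 induced ones. HKDC1, a low-abundance member of the family, had 6, 6 and 2 counts without and 13, 10 and 12 with induction (log2 fold change 1.25, standard error 0.43, adjusted p = 0.029). Its call was lost in 7 of 13 alternatives, among them those without non-induced library A or C or induced library T or A, and without non-induced C the log2 fold change was 0.91. HK2 made up 14.9% ± 1.06 of hexokinase level per kb without and 36.9% ± 0.837 with induction (SD, n = 3).

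GPI, the isomerase that follows hexokinase, rose from 213 ± 17.5 to 277.5 ± 5.98 CPM (SD, n = 3; log2 fold change 0.38, adjusted p = 0.00454), and was not called with upper-quartile scaling (adjusted p = 0.0571). Of the 3 phosphofructokinase genes, which encode subunits of 1 enzyme, only PFKP was called. PFKP measured 307, 287 and 270.3 CPM without and 186.2, 203 and 209.2 CPM with induction (log2 fold change -0.53, standard error 0.10, adjusted p = 0.000813). PFKL was at 109.4 ± 8.003 and 96.8 ± 1.95 CPM and PFKM at 112.7 ± 9.61 and 124.2 ± 6.39 CPM (SD, n = 3), with adjusted p of 0.192 and 0.207. PFKP remained the most abundant of the 3 per kb, at 68.3% ± 0.316 and 59.7% ± 1.07 of their sum (SD, n = 3).

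The PFKFB genes encode the bifunctional enzymes that set fructose 2,6-bisphosphate, the strongest activator of phosphofructokinase. PFKFB3, whose product favors its synthesis, measured 68.5, 63.4 and 60.5 CPM without and 120.5, 120.1 and 125.1 CPM with induction (log2 fold change 0.93, standard error 0.081, adjusted p = 1.28e-06). PFKFB4 measured 16.01, 13.14 and 12.04 CPM and then 23.3, 22.6 and 22.1 CPM (log2 fold change 0.72, standard error 0.11, adjusted p = 0.000169). Neither gene had overlapping libraries. PFKFB2 was at 8.31 ± 0.576 and 8.10 ± 0.309 CPM (SD, n = 3; adjusted p = 0.724).

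**Figure D1:**
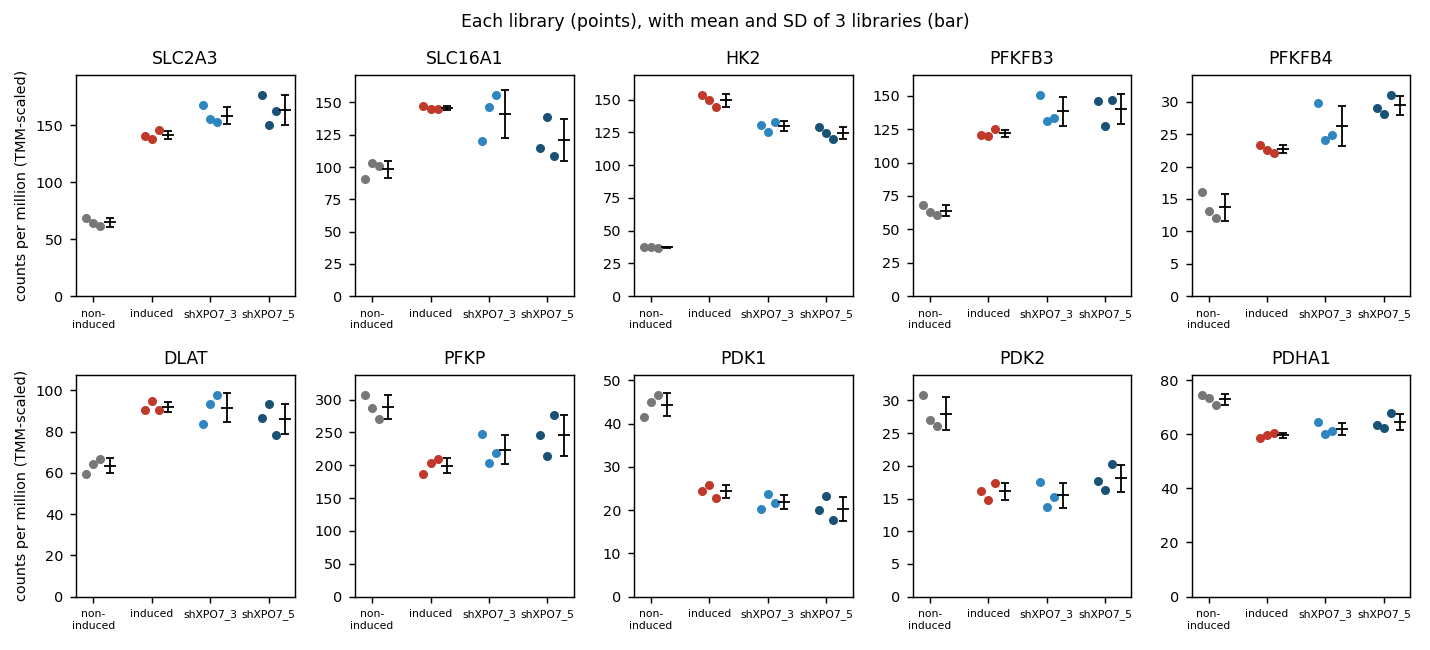
TMM-scaled CPM (y axis, from 0) of the 10 members called on induction in all 15 alternatives, in each of the 12 libraries by group (x axis). Points are libraries and black bars the mean and SD of 3; HK2 lies at 37.0 to 37.8 CPM without and 144.3 to 153.8 CPM with induction, and in all 10 panels the induced and non-induced points do not overlap.

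From aldolase to pyruvate kinase the members moved little. Of 9 genes, TPI1 and PGAM1 were called higher, none was called lower, and all log2 fold changes lay between -0.26 and 0.31. TPI1 (triosephosphate isomerase) rose from 491.9 ± 45.2 to 610.4 ± 29.3 CPM (SD, n = 3; log2 fold change 0.31, adjusted p = 0.0235), and PGAM1 (phosphoglycerate mutase) from 249.7 ± 18.9 to 296.8 ± 8.33 CPM (SD, n = 3; log2 fold change 0.25, adjusted p = 0.0274). The TPI1 call was lost in 5 of 15 alternatives, namely without non-induced library A or C or induced library B, with upper-quartile scaling (adjusted p = 0.177) and with the replicate letter as a block (adjusted p = 0.0603). That of PGAM1 was lost in 7, namely without non-induced library A or C or any induced library, with upper-quartile scaling (adjusted p = 0.269) and with the block (adjusted p = 0.0755). GAPDH, which with RPS14 was a reference gene of the study's qPCR, stood at 4513, 4064 and 3821 CPM without and 3660, 3715 and 4008 CPM with induction. Its groups overlapped and it was not called (log2 fold change -0.12, 95% confidence interval -0.33 to 0.082, adjusted p = 0.297). ALDOA, PGK1, ENO2 and PKM were not called, at log2 fold changes of 0.10, 0.11, 0.16 and 0.053. ALDOC (-0.26, adjusted p = 0.0503) and ENO1 (-0.20, adjusted p = 0.0834) were just outside the threshold, with all induced libraries below the non-induced ones.

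LDHA, the subunit that favors lactate formation, measured 802.3, 731 and 724.2 CPM without and 641.8, 663.2 and 682.9 CPM with induction (log2 fold change -0.18, standard error 0.071, adjusted p = 0.0483). Its call was lost in 8 of 15 alternatives, including those without non-induced library T or C or induced library T or A. LDHB was at 522.0 ± 14.2 and 549.4 ± 16.4 CPM (SD, n = 3; adjusted p = 0.331). LDHA made up 40.9% ± 1.88 of the pair per kb without and 36.7% ± 0.0566 with induction (SD, n = 3).

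At the PDH complex 2 of the 4 kinases, PDK1 and PDK2, were called lower, while the core subunits PDHA1 and DLAT changed in opposite directions. PDK1 measured 41.6, 45.0 and 46.6 CPM without and 24.5, 25.7 and 22.8 CPM with induction (log2 fold change -0.87, standard error 0.10, adjusted p = 1.66e-05). PDK2 measured 30.8, 26.9 and 26.1 CPM and then 16.1, 14.8 and 17.4 CPM (log2 fold change -0.79, standard error 0.12, adjusted p = 0.000105). The libraries did not overlap for either kinase. PDK3 was at 1.43 ± 0.208 and 0.959 ± 0.250 CPM (SD, n = 3; adjusted p = 0.0859). PDK4 had 0, 3 and 1 counts without and 3, 1 and 1 with induction. The summed level of the 4 kinases per kb was 8.38 ± 0.307 without and 4.78 ± 0.164 with induction (SD, n = 3).

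PDK2 shares 38.6% of its exon bases with SAMD14 on the opposite strand, and whether counting used the strand is not given in the sources used here. SAMD14 itself averaged 19.0 ± 1.34 and 23.2 ± 0.669 CPM (SD, n = 3; log2 fold change 0.29, adjusted p = 0.0744), the opposite direction to PDK2. PDHA1, the catalytic E1 alpha subunit, fell from 72.9 ± 1.98 to 59.7 ± 1.02 CPM (SD, n = 3; log2 fold change -0.29, adjusted p = 0.00201). It shares 21.3% of its exon bases with MAP3K15 on the opposite strand, a gene at 0.511 and 0.153 CPM. DLAT, the E2 core of the complex, measured 59.6, 64.3 and 66.5 CPM without and 90.4, 94.8 and 90.6 CPM with induction (log2 fold change 0.53, standard error 0.083, adjusted p = 0.000173), with no overlap. PDHB (E1 beta), the phosphatase PDP1 and the pyruvate carrier subunits MPC1 and MPC2 were not called, at -0.11, -0.087, -0.14 and -0.11. MPC2 shares 22.5% of its exon bases with DCAF6 on the opposite strand. DCAF6 fell from 120.7 ± 8.13 to 97.4 ± 2.02 CPM (SD, n = 3; log2 fold change -0.31, adjusted p = 0.028), the same direction as MPC2.

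**Figure D2:**
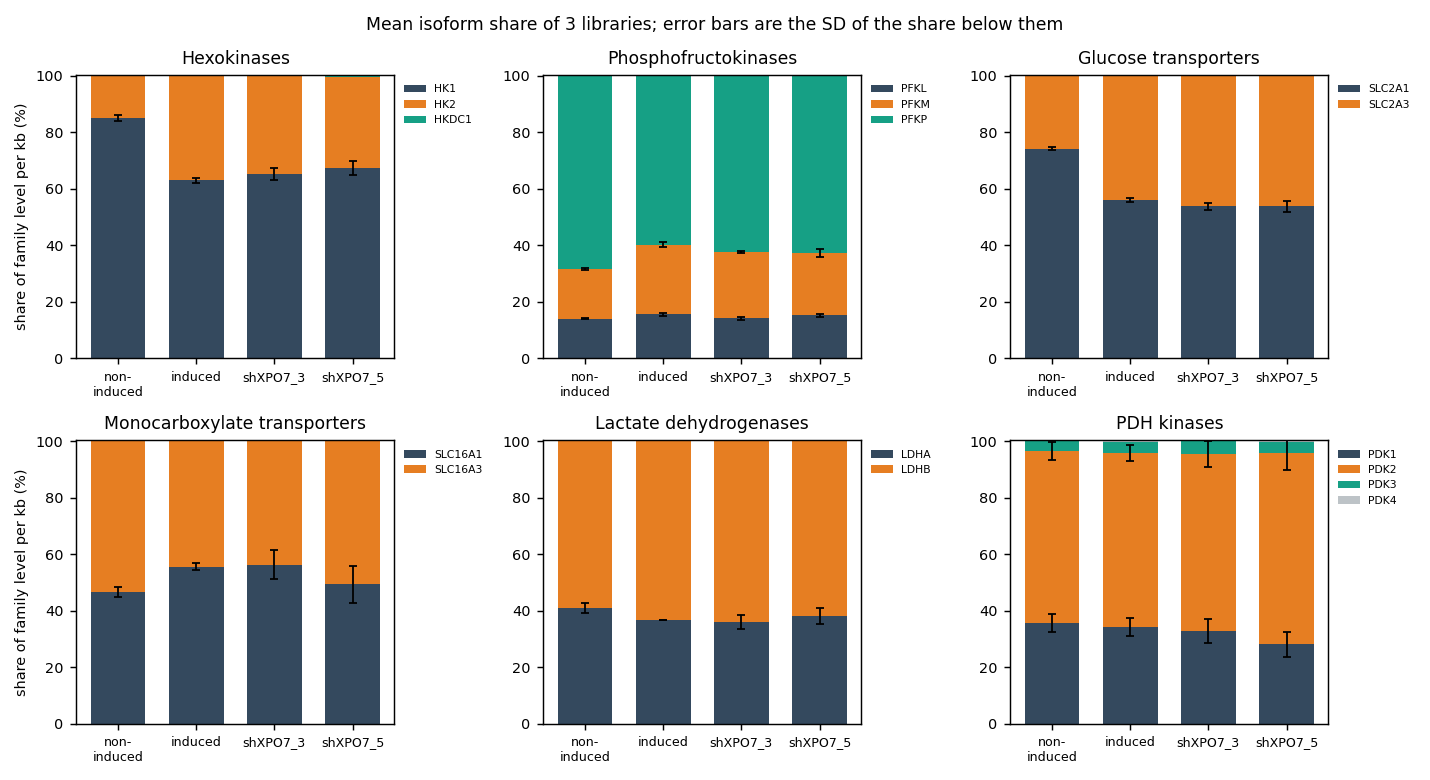
Share of each gene in the summed level per kb of its family (y axis, %) in the 4 groups (x axis), as the mean of 3 libraries and each error bar is the SD of the gene just below it. HK2 takes 14.9% of hexokinase level without and 36.9% with induction and SLC2A3 25.8% and 43.9% of the glucose carriers. The PDH kinase shares change little on induction (PDK1 35.7% and 34.3%), and PDK1 is at 28.1% with shXPO7_5.

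Ratios of paralogs within a library do not depend on scaling between libraries. They were not corrected for transcript GC content, which was 65.6% for SLC16A3 and 44.9% for SLC16A1. Within the shXPO7_5 group the log2 ratio of SLC16A3 to SLC16A1 per kb ran from -0.34 to 0.43. The log2 ratio of HK2 to HK1 per kb rose from -2.51 to -0.77 and that of SLC2A3 to SLC2A1 from -1.52 to -0.35. That of PFKP to PFKM went from 1.95 to 1.28, SLC16A3 to SLC16A1 from 0.20 to -0.32, and LDHA to LDHB from -0.53 to -0.79. None of these had overlapping libraries. The exact two-sided permutation test gave p = 0.1 for each, the smallest that 3 against 3 allow, and 0.22 after adjustment over 44 tests. The ratio of PDK1 to PDK2 overlapped between the groups, at -0.77 and -0.84 (exact p = 0.7).

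The members span a wide range of levels. Per kb of exon, GAPDH was the highest in all 4 groups, at 1386 CPM per kb without and 1273 with induction. PKM, ENO1, ALDOA and TPI1 followed, at 308.3, 286.5, 248.8 and 182.2 CPM per kb without induction, and the libraries of PKM and ENO1 overlapped there. HKDC1 and PDK4 were the lowest in all groups. HK2 moved from rank 27 to rank 16 of 35, SLC2A3 from 24 to 17 and PFKFB3 from 25 to 19. The summed level of the 18 enzyme genes from hexokinase to lactate dehydrogenase was 3048 ± 225 CPM per kb without and 3004 ± 125 with induction (SD, n = 3). These genes held 1.33% ± 0.0805 and 1.25% ± 0.0549 of all counts. Lengths are unions of GENCODE exons, which can exceed the transcripts the cells use.

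**Figure D3:**
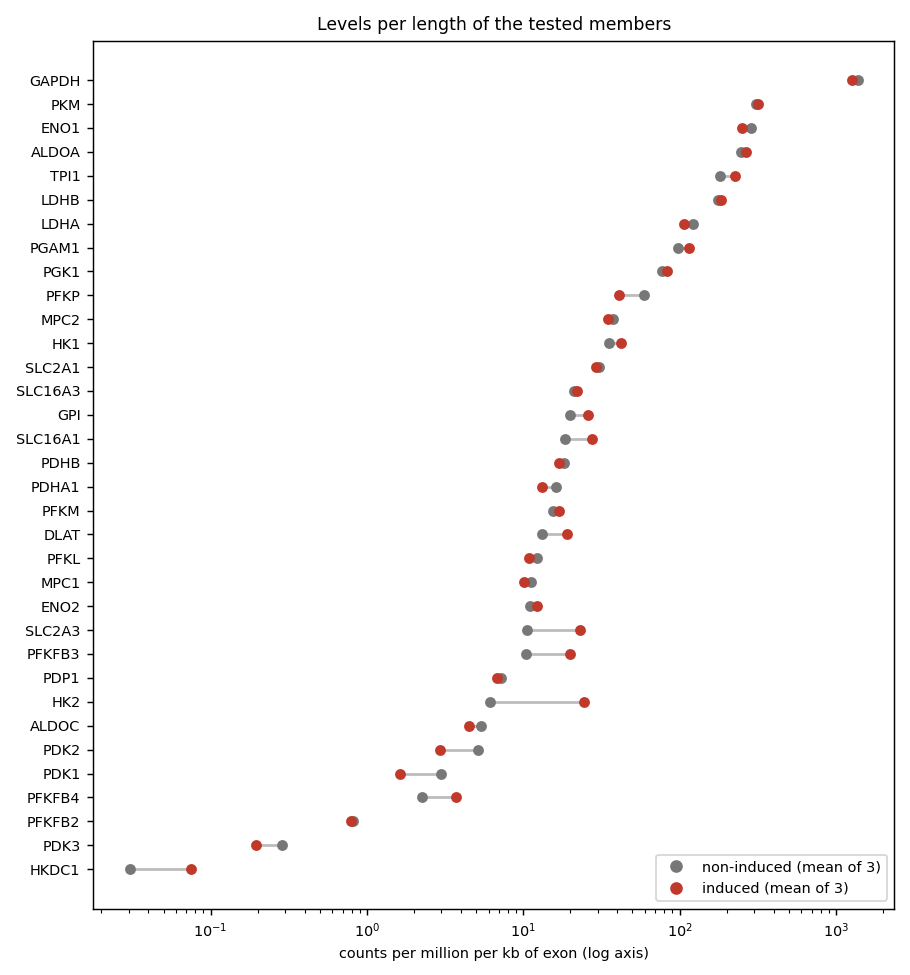
Mean level of the 34 tested members in CPM per kb of exon (x axis, log scale), non-induced (gray) and induced (red), ordered by the non-induced level (y axis). GAPDH is at the top near 1386 and HKDC1 at the bottom at 0.0304; the longest gray lines belong to HK2, HKDC1 and SLC2A3.

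Other isoforms of the pathway were measured beside the members. Of 21 listed, 8 passed the filter, of which 2 were called higher and 3 lower, where 50.9% of all genes were called. BPGM, which makes 2,3-bisphosphoglycerate as a detour in lower glycolysis, measured 40.0, 40.3 and 39.6 CPM without and 310.6, 309.0 and 311.5 CPM with induction. Its log2 fold change was 2.96 (adjusted p = 1.57e-11, standard error 0.064), which exceeded that of every member. ENO3, the muscle enolase, was called lower at -1.63 (adjusted p = 0.0431), but its non-induced libraries read 16.3, 2.96 and 3.40 CPM and the groups overlapped. PC, the carboxylase that takes pyruvate to oxaloacetate, fell by 0.50 on the log2 scale (adjusted p = 0.00321).

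Of 10 other sugar and monocarboxylate carriers tested, 4 were called higher and 3 lower, where 50.9% of all genes were called. The largest changes were SLC2A14 (1.21, adjusted p = 0.00855), SLC2A13 (1.17, adjusted p = 0.0037), a myo-inositol carrier, and SLC2A9 (-1.05, adjusted p = 0.0223), a urate carrier. SLC2A14, the near-identical copy of SLC2A3, and SLC2A9 had few counts. SLC2A14 had 15, 12 and 15 without and 36, 20 and 49 with induction, and SLC2A9 had 23, 28 and 15 and then 12, 4 and 18. Of 4 further PDH genes tested, 2 were called higher, against the same 50.9% of all genes called. PDHX, which anchors E3 in the complex, rose from 37.7 ± 3.78 to 66.2 ± 2.66 CPM (SD, n = 3; log2 fold change 0.81, adjusted p = 7.07e-05), and PDP2, a PDH phosphatase, from 19.8 ± 0.509 to 30.4 ± 1.76 CPM (SD, n = 3; log2 fold change 0.62, adjusted p = 1.47e-05).

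Among 12 tested HIF-1 targets outside glycolysis, 5 were called higher and 1 lower. Of all genes, 50.9% were called, 24.8% higher and 26.1% lower. BHLHE40, a repressor of the clock family, rose from 37.3 to 226.4 CPM (log2 fold change 2.60, adjusted p = 5.94e-11) and VEGFA, an angiogenic growth factor, from 52.5 to 175.0 CPM (log2 fold change 1.74, adjusted p = 8.25e-10). ADM, which encodes adrenomedullin, fell by 0.86 on the log2 scale (adjusted p = 1.28e-05). Of 13 regulators tested, 5 were called higher and 2 lower, against the same 50.9% of all genes called. ARRDC4, an arrestin-like inhibitor of glucose uptake, measured 9.33, 11.6 and 11.6 CPM without and 54.7, 54.4 and 56.6 CPM with induction (log2 fold change 2.35, adjusted p = 2.12e-08). EPAS1 (HIF-2 alpha) fell from 519.9 ± 40.4 to 164.8 ± 1.32 CPM (SD, n = 3; log2 fold change -1.66, adjusted p = 3.62e-09). TIGAR, a phosphatase that lowers fructose 2,6-bisphosphate, rose by 1.09 on the log2 scale (adjusted p = 4.01e-06). All these adjusted p-values are from edgeR's test over all genes.

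The knockdown comparisons asked whether loss of XPO7 altered these genes in induced cells. None of the 34 tested members was called with shXPO7_3 against induced, where 0.124% of all genes were called. None was called with shXPO7_5, where 0.589% were. At an unadjusted p under 0.05 in edgeR's test the member counts were 3 and 8, where 6.41% and 21.6% of all genes passed, so these counts lie near the background. DESeq2 called 0 and 3 members, and 0.576% and 2.79% of all genes. The libraries did not overlap for 5 and 12 members, against 14.6% and 26.8% of all genes. Both comparisons use the same induced libraries and are not independent. Leaving aside the low-count genes HKDC1 and PDK3, every 95% confidence interval lay between -0.38 and 0.45 with shXPO7_3 and between -0.51 and 0.62 with shXPO7_5. Changes within these bounds are not excluded by the missing calls. In the direct comparison of the hairpins no member was called (0.0131% of all genes were), and HKDC1 was the 1 member at an unadjusted p under 0.05, which 11.9% of all genes passed.

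HK2 had the smallest p of the members with either hairpin. It measured 130.8, 125.4 and 132.7 CPM with shXPO7_3 and 129.2, 124.5 and 120.1 CPM with shXPO7_5, all below the 3 induced libraries and all above the non-induced ones. The log2 fold change was -0.20 (standard error 0.058, adjusted p = 0.313) and -0.26 (standard error 0.058, adjusted p = 0.065). With shXPO7_5 it passed the threshold in 5 of 15 alternatives, with adjusted p from 0.00461 upward. The direct difference between hairpins was -0.058 (95% confidence interval -0.18 to 0.068, adjusted p = 0.542).

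PFKFB4 read 29.8, 24.1 and 24.9 CPM with shXPO7_3 and 29.1, 28.2 and 31.1 CPM with shXPO7_5, above the induced libraries in each case (log2 fold change 0.21, adjusted p = 0.879, and 0.38, adjusted p = 0.13). ALDOC read 17.1, 13.5 and 14.4 CPM and 17.2, 16.2 and 18.2 CPM (0.19, adjusted p = 0.919, and 0.39, adjusted p = 0.107). For PFKP the values were 247.7, 204.1 and 219.3 CPM with shXPO7_3 and 246.5, 214.1 and 276.7 CPM with shXPO7_5 (0.17, adjusted p = 0.984, and 0.30, adjusted p = 0.165). PDK1 read 20.3, 23.7 and 21.7 CPM and 19.9, 23.2 and 17.8 CPM (-0.15, adjusted p = 0.999, and -0.26, adjusted p = 0.203). SLC2A3 was at 158.7 ± 7.83 CPM with shXPO7_3 and 163.4 ± 13.3 CPM with shXPO7_5 (SD, n = 3), and SLC16A1 at 140.9 ± 18.5 and 120.8 ± 16.2 CPM (SD, n = 3). Neither was called with either hairpin. HK2 made up 34.6% ± 2.09 and 32.4% ± 2.44 of hexokinase level per kb (SD, n = 3).

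Fold changes with shXPO7_5 moved with the GC content of transcripts, and the part of GC content in the member values beyond the corrected fit was not tested. Across all genes with a value, the Spearman correlation of the log2 fold change with transcript GC content was 0.11 with shXPO7_3 and 0.69 with shXPO7_5, and across the 34 members it was 0.29 and 0.71. Genes share libraries and are not independent, so these are descriptions. For single libraries against the mean of the induced ones, shXPO7_5 T and B stood at 0.65 and 0.81 and A at 0.12, while shXPO7_3 T stood at 0.61 and A and B at -0.37 and -0.27. Without shXPO7_5 library A, 9 members were called, with SLC2A3, GPI, PFKP, PFKFB3, PFKFB4 and ALDOC higher and SLC16A1, HK2 and PDK1 lower. That fit called 3634 of all genes, or 23%, against 26.5% of the tested members. With the GC and length correction, the members called with shXPO7_5 were HK2 at -0.31 (adjusted p = 0.00591), PFKFB4 at 0.24 (adjusted p = 0.0482) and ALDOC at 0.25 (adjusted p = 0.0289). These were 8.82% of the tested members, in a fit that called 3.29% of all genes. The other members called without library A were not called in the corrected fit. There PDK1 stood at 0.019, PFKFB3 at 0.029, GPI at 0.045, PFKP at 0.13, SLC16A1 at -0.165 and SLC2A3 at 0.25.

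**Figure D4:**
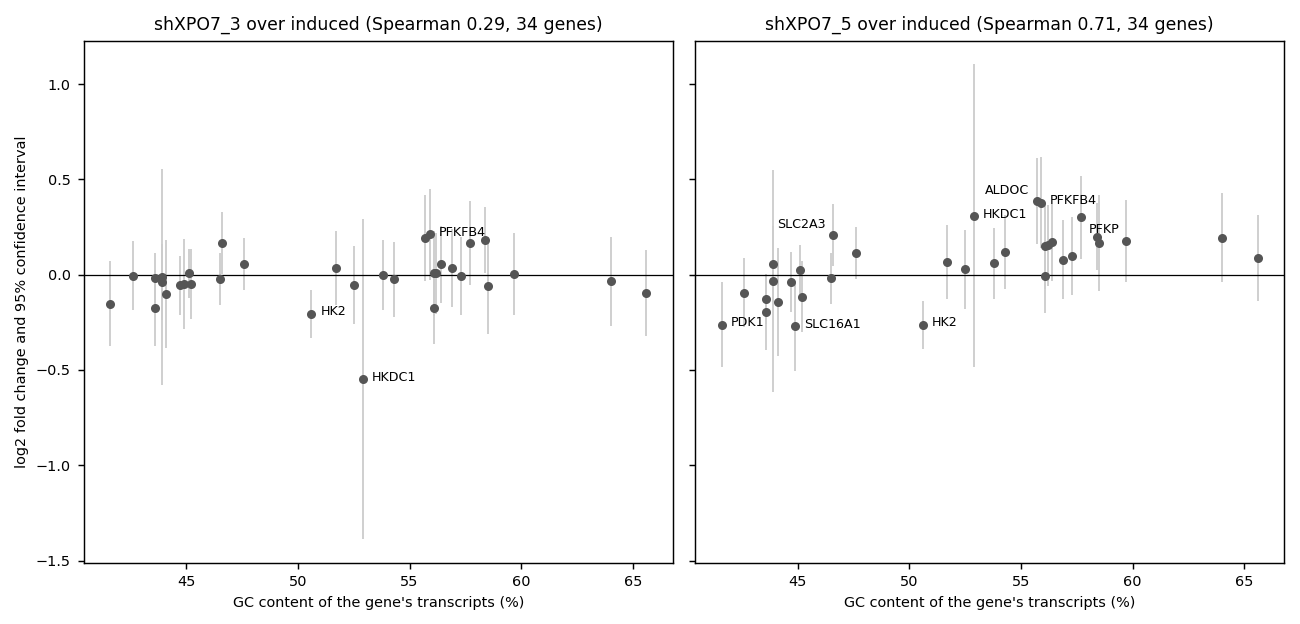
Log2 fold change against induced (y axis, with 95% confidence intervals) of the 34 tested members by the GC content of their transcripts (x axis, %), for shXPO7_3 (left) and shXPO7_5 (right). No member was called in either panel; the points on the right climb with GC content (Spearman 0.71), and HK2 lies below 0 in both.

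Of the genes outside the members that were followed, XPO7 was called lower with each hairpin, and ADM was called with shXPO7_5. ADM measured 37.9, 35.9 and 38.2 CPM in induced cells, 55.0, 46.6 and 48.9 CPM with shXPO7_3 and 54.9, 47.6 and 57.6 CPM with shXPO7_5. The log2 fold change with shXPO7_5 was 0.52 (adjusted p = 0.0389 from edgeR's test), where 0.589% of all genes were called. With shXPO7_3 ADM was not called, where 0.124% of all genes were. All 6 knockdown libraries were above the induced ones, and 14.6% and 26.8% of all genes had no overlap with shXPO7_3 and shXPO7_5. A value of ADM corrected for GC content is not given here.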

How the data were processed

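The authors deposited raw, unnormalized gene-level read counts for the 12 libraries. Per the labels, libraries were made with an Illumina stranded mRNA kit. The submitters' processing notes name featureCounts 1.18.0, TopHat2 2.0.11 and CASAVA 1.8.4, with hg19 and GRCh37 as builds. How featureCounts treated strand and multi-mapped reads, and with which annotation, is not given in the sources used here. Values of overlapping and near-identical genes are therefore uncertain. Groups and replicate letters came from sample titles. The 92 spike-in rows were at 0 and left out. Symbols came from a table of gene names matched by Ensembl identifier, which named 49517 genes. TXNIP, on the list of regulators, was listed at 0 in all 12 libraries under its current identifier and is not read as absent.

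Counts were analyzed in R 4.3.3 with edgeR 4.0.16: filterByExpr with the groups, TMM scaling, and a quasi-likelihood fit to all 12 libraries in 4 groups with no covariates. A test for differential expression is not given in the sources used here. Benjamini-Hochberg adjustment ran over 15284 genes, with a threshold of 0.05. Levels are TMM-scaled CPM, and genes were compared only per kb of GENCODE release 29 exons (GRCh38, while counting used GRCh37), matched by identifier. Paralog ratios added 0.5 counts and were tested by exact permutation over libraries. The fit was tested on simulated data. All pairs of libraries in a group differed beyond counting noise (chi-square per gene of 4.57 to 61.7). Depth bears on counting error only, which adds to the spread between libraries.

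The members, gene lists and tests were chosen with earlier results of these data known. All 35 members are named. Of each other list, counts and up to 3 called genes with the largest change on induction are given, with XPO7 and any listed gene called in a knockdown comparison. A gene of these lists that the rule would name is not reported here. As alternatives the factors were changed to RLE or upper-quartile, the filter to 1 count in any library or to 1 CPM in at least 6, and the tool to DESeq2 1.42.0. Others were the replicate letter as a block, a GC content and length correction (spline with 5 degrees of freedom) without and with it, a fit restricted to the compared groups, and each library left out in turn. Ratios without each library were added after seeing the data.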

Additional observations from a re-analysis of the deposited data

How the results depend on the processing

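On induction, the members' median log2 fold change of 0.052 was -0.047 with upper-quartile factors, 0.00044 with the replicate block and 0.099 with the GC and length correction. SLC2A1, not called at -0.047, was called higher at 0.113 with that correction, without and with the block. Of 508 member estimates under alternatives, 443 kept their side of the threshold, 36 lost a call, 27 gained one and 2 were these reversals; the causes were not tested. Members called on induction ranged from 12 to 24 (16 in the report). The 12 (35.3%) came with a library left out, where 43% to 47.2% of all genes were called. The 24 (70.6%) came with the correction, where 64.8% of all genes were called, or 63.4% with the block added. With shXPO7_3, all genes called went from 19 to 8 with upper-quartile factors, 30 without the filter, 88 with DESeq2, 382 with the correction, 481 with correction and block, 2 in the fit to 2 groups and 1 with any library left out. Members called stayed at 0 except for 1 (HK2) with correction and block, where 3.15% of all genes were called. With shXPO7_5, the 90 genes called became 217 without the filter, 426 with DESeq2, 149 with the block, 503 with the correction, 1040 with correction and block, 10 in the fit to 2 groups and 2 to 3634 with a library left out (3634 without shXPO7_5 library A). Members called there were 1 with the filter of 1 CPM, where 1.08% of all genes were called, and 3 with DESeq2 (2.79% of all genes). They were 3 with the correction (3.29%), 4 with correction and block (6.8%) and 0 to 9 with a library left out (23% in the fit with 9). Between hairpins, the 2 genes called became 20, 27, 32, 69 and 0 without the filter, with DESeq2, with the correction, with correction and block, and in the fit to 2 groups, and 1 to 4 with a library left out. Whether replicate letters pair the samples was not tested beyond correlations between libraries. Of 15 pairs sharing a letter, 8 correlated above 0.1, from -0.44 to 0.71 with a median of 0.16. Of 39 pairs with different letters, 14 did, from -0.76 to 0.72 with a median of -0.16. The replicate block called 14 members on induction (7 higher, 7 lower), where 52.3% of all genes were called, and 0 with either hairpin. Depth and 3 libraries a group limit the low-count genes HKDC1, PDK3 and PDK4 most.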

Other observations

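Neighboring pathways were measured on induction as well. Of 8 pentose phosphate pathway genes tested, 1 was called higher and 2 lower, where 50.9% of all genes were called. RPIA, which interconverts pentose phosphates, fell from 10.4 ± 0.671 to 6.99 ± 0.878 CPM (SD, n = 3; log2 fold change -0.56, adjusted p = 0.000743 from edgeR's test), and H6PD, the enzyme of the endoplasmic reticulum, rose from 144.4 ± 18.3 to 179.9 ± 5.72 CPM (SD, n = 3; 0.32, adjusted p = 0.0237).

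Of 16 tricarboxylic acid cycle genes, all tested, 2 were called higher and 2 lower, and 12 did not pass the test. Of all genes, 50.9% were called. IDH3A, a subunit of the NAD-dependent isocitrate dehydrogenase, rose from 46.3 ± 2.95 to 67.7 ± 2.10 CPM (SD, n = 3; log2 fold change 0.55, adjusted p = 0.000231). SDHB, a subunit of succinate dehydrogenase, rose from 70.8 ± 5.58 to 89.4 ± 4.40 CPM (SD, n = 3; 0.34, adjusted p = 0.00167). SUCLG2, of the GTP-forming succinate-CoA ligase, fell from 70.9 ± 0.866 to 50.1 ± 1.48 CPM (SD, n = 3; -0.50, adjusted p = 0.000782). None of these lists had a gene called with either hairpin; the counts at an unadjusted p under 0.05 were 0 and 4 for the pentose phosphate list and 0 and 2 for the tricarboxylic acid list with shXPO7_3 and shXPO7_5, where 6.41% and 21.6% of all genes passed. As a check of the state of the cells, 11 genes were listed, among them XPO7, the target of the hairpins. On induction 7 were called higher and 3 lower, where 50.9% of all genes were called. Those named here all rose, with IL1B at 0.257 and 136.9 CPM, CXCL8 at 2.25 and 457.0 CPM and IL1A at 0.202 and 30.7 CPM. The genes called lower are not named.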
